A study of Mus musculus with 44 samples.

Results

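Nup214 and Gm13610 each hold 1 recognition motif of the restriction enzyme AsiSI on mouse chromosome 2, and the cuts lie 261.3 kb apart. Nup214 encodes a nucleoporin of the cytoplasmic face of the nuclear pore, and Gm13610 is annotated as an antisense non-coding transcript. The members described here were all junctions on chromosome 2 within 500 bp of either cut, and the sites were chosen by their high junction numbers, which had been ranked in the 6 DMSO libraries of the CK-666 experiment. Across 32 libraries they numbered 3763 of 148726 deposited junctions, 2220 at Nup214 and 1543 at Gm13610. The window left little in doubt, since 2126 of the Nup214 junctions and 1475 of the Gm13610 junctions lay within 100 bp. The outermost junctions inside it were 475 bp and 500 bp from the cut, and the nearest outside it 517 bp and 501 bp.

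The junctions were collected by high-throughput genome-wide translocation sequencing (HTGTS), in which a primer beside 1 known break (the bait) is extended across the join into whatever sequence (the prey) that end met. AsiSI-MEFs are C57BL/6 mouse embryonic fibroblasts with an AsiSI enzyme whose expression needs doxycycline and whose entry into the nucleus needs 4-hydroxytamoxifen (4OHT), and all AsiSI-MEF groups, controls included, received 3 µg/ml doxycycline for 24 h with 1 µg/ml 4OHT over the last 6 h. Of the 26 AsiSI-MEF libraries, 6 received DMSO and 6 received CK-666 at 100 µM, which inhibits the actin nucleator ARP2/3, 3 DMSO and 3 NU7441 at 10 µM, which inhibits the end-joining kinase DNA-PKcs, 2 DMSO and 2 wiskostatin, a WASP inhibitor, and 2 empty vector and 2 R62D actin with a nuclear localization signal, a mutant that does not polymerize. The other 6 libraries came from wild-type MEFs that were lysed 48 h after transfection of a guide for a Cas9 cut at the bait, 3 with DMSO and 3 with 100 µM CK-666. The labels give all cells as genotype WT and do not state whether libraries of a group came from separate cultures. The paper calls those of the AsiSI-MEF experiments biological replicates. P-values are taken here as a measure of the spread between libraries only. The 13 DMSO and vector libraries of AsiSI-MEFs are called control libraries below. Libraries held between 362 and 18428 junctions, and the denominator of each share is its junctions on the assembled nuclear chromosomes, leaving out 10 kb on either side of the bait, 335 to 17479 per library.

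AsiSI leaves a short 3′ overhang in the middle of its palindromic motif, so each cut gives 2 ends that can be joined to the bait. Non-homologous end joining can seal such ends with little loss of bases, whereas end resection and alternative end joining remove bases and often use short stretches shared by both ends, called microhomology. In HTGTS the strand of the prey tells which end of the prey break was joined, the first prey base tells how much of that end was lost, and the overlap of both alignments on the read tells how many bases could have come from either side.

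Both motifs sit in introns close to gene starts. Coordinates are mm10, with genes from GENCODE M21. The Nup214 motif (31974701 to 31974708) lies in the first intron of Nup214 (ENSMUSG00000001855, plus strand, 31974436 to 32053975), 97 bp past the first exon and 269 bp from the gene start. The Gm13610 motif (32236003 to 32236010) lies in the intron of Gm13610 (ENSMUSG00000086216, minus strand, 32232782 to 32236382), 375 bp from the gene start, and 583 bp from the start of Pomt1, which encodes a protein O-mannosyltransferase and runs the other way. No further AsiSI motif occurs between them, and the next ones stand 832858 bp to the left and 425222 bp to the right. The 4 protein-coding genes that reach into the interval are Nup214, Fam78a, Plpp7 and Prrc2b, and Prrc2b ends 1470 bp before the Gm13610 cut. The bait motif lies in an exon of Rsu1 (ENSMUSG00000026727), a gene for a Ras suppressor, 18.7 Mb to the left of Nup214 and 19 Mb to the left of Gm13610.

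The reference sequence around each motif is shown because the junction classes below follow from it. The motif is in capitals, and all 3 stretches are on the plus strand of chromosome 2 (chr2:13271306-13271335, chr2:31974690-31974719 and chr2:32235992-32236021).
bait Rsu1: accctgtcccaGCGATCGCgcaggcgcaca
Nup214: ttcgcagggtcGCGATCGCtcgccccacag
Gm13610: ctaaccactgaGCGATCGCccagccccatt
The primer reads the left-hand end of the bait cut. Joined to the right-hand end of a prey cut, it gives a plus-strand prey in the orientation of a deletion of the stretch between them. Joined to the left-hand end it gives a minus-strand prey in the orientation of an inversion. Where both ends meet without loss and the motif is made whole again, the following 4 sequences result, again with the motif in capitals.
bait to Nup214 left end: accctgtcccaGCGATCGCgaccctgcgaa
bait to Nup214 right end: accctgtcccaGCGATCGCtcgccccacag
bait to Gm13610 left end: accctgtcccaGCGATCGCtcagtggttag
bait to Gm13610 right end: accctgtcccaGCGATCGCccagccccatt

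Each AsiSI-MEF library joined the bait to both sites, and Nup214 received more junctions than Gm13610 in 12 of the 13 control libraries. Nup214 held between 1.23% and 3.64% of junctions in the control libraries, with a median of 1.95% and a mean of 2.11% ± 0.679 (SD, n = 13). Gm13610 held between 0.942% and 1.97%, with a median of 1.41% and a mean of 1.40% ± 0.261 (SD, n = 13). These levels partly chose the sites and are a description. Added over the control libraries, Nup214 ranked 3 and Gm13610 ranked 7 by junctions among the 358 motifs that received any, and on chromosome 2 both kept those ranks among 35 motifs. For scale, among sites prominent in the 6 DMSO libraries, Romo1 received 1695 junctions, Nup214 1384, Dnmt3b 1211, Arhgap21 1205 and Gm13610 954. In single control libraries Nup214 ranked between 1 and 10 and Gm13610 between 5 and 9.

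**Figure D1:**
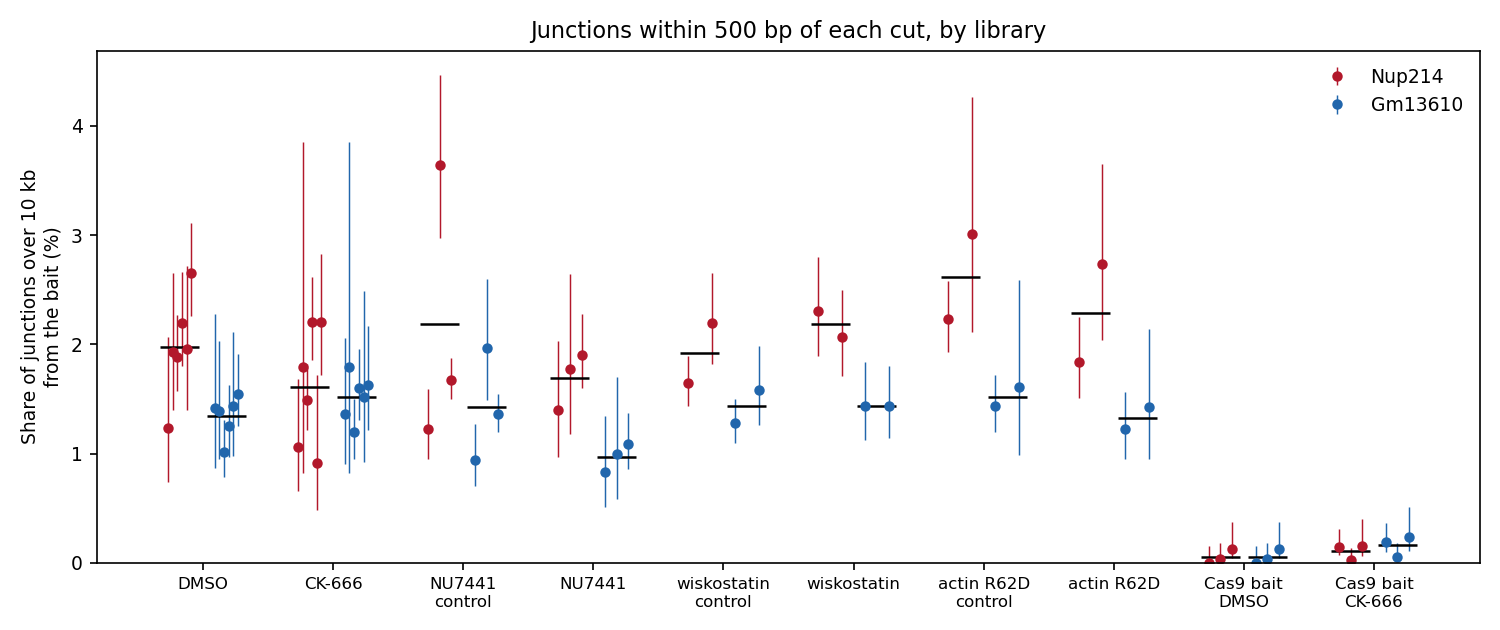
Share of junctions more than 10 kb from the bait (vertical axis, percent) that lay within 500 bp of the Nup214 cut (red) or the Gm13610 cut (blue), for each of the 32 libraries by group (horizontal axis); vertical bars are 95% Wilson intervals of single libraries and black lines are group means. Nup214 lies above Gm13610 in most AsiSI-MEF groups, and the libraries with the Cas9 bait lie at 0.235% or below.

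The ratio of both sites was tested in the 7 control libraries outside the CK-666 experiment, which had not been used to rank them. Earlier results of these data were known when the sites were chosen, so these libraries are not fully independent of the choice. The Nup214 junctions there numbered 197 and 104 in the wiskostatin controls, 179 and 30 in the vector controls, and 56, 89 and 293 in the NU7441 controls. The Gm13610 junctions of the same libraries numbered 153 and 75, 115 and 16, and 43, 48 and 238. Nup214 thus had more junctions in 7 of 7 libraries, by a ratio between 1.23 and 1.88, and the mean log2 ratio was 0.56 ± 0.25 (SD, n = 7, exact two-sided sign-flip test, p = 0.0156, the smallest p that 7 libraries allow). In the 6 DMSO libraries the ratio ran from 0.875 to 1.86 with a median of 1.55, and it was below 1 in replicate 1 alone, at 14 against 16 junctions. Each form of a junction, given by prey position, strand, bait end and both read positions, occurred 1 time per library, since 0 of the 148726 junctions repeated all of these within a library. Joins that arose repeatedly in the same form are therefore counted 1 time.

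Libraries with the Cas9 bait gave the background in cells without AsiSI. The 3 DMSO libraries held 0, 1 and 3 junctions at Nup214 and 0, 1 and 3 at Gm13610, and the 3 CK-666 libraries held 7, 1 and 4 at Nup214 and 9, 2 and 6 at Gm13610. Summed over the 19414 junctions of these libraries, this came to 0.0824% at Nup214 and 0.108% at Gm13610. The 0 of 2536 in DMSO replicate 1 allows a share of up to 0.118%. Of these 16 and 21 junctions, 12 and 15 had the same prey position, strand, bait end and overlap as a junction in 1 of the 2 AsiSI-MEF libraries sequenced in the same run, and 9 and 9 had the motif whole. How they came about was not tested.

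Both sites gave joins to either end. The right-hand end, in deletion orientation, took 54.7% ± 7.50 (SD, n = 13) of Nup214 junctions per library, from 44.1% to 66.7% with a median of 56.7%. At Gm13610 it took 57.4% ± 9.80 (SD, n = 13), from 45.2% to 81.2% with a median of 55.9%. Each site was above 50% in 9 of 13 libraries (exact two-sided sign-flip test, p = 0.0464 and 0.0107, Benjamini-Hochberg adjusted over both sites 0.0464 and 0.0215). The excess at Nup214 lost its call without any 1 of 9 of the 13 libraries (3.71 to 5.59 percentage points, 4.71 with all) and under further settings: without the prey that began past the cut (described below) it was 2.82 points (adjusted p = 0.255), and with at least 30 junctions at each site, which left 9 libraries, it was 4.07 and 3.97 points at Nup214 and Gm13610 (exact sign-flip, adjusted p = 0.133 for both). The sites did not differ detectably from each other in this share (mean difference -2.73 points, SD 10.7, adjusted p = 0.442 over the 7 measures of structure). The other motifs of chromosome 2 added up had a mean of 51.1% ± 2.90 (SD, n = 13). Nup214 was 3.63 and Gm13610 6.36 points above them (exact sign-flip, adjusted p = 0.0756 and 0.0587). With the control libraries added up, the share was 55.4% at Nup214 and 52.9% at Gm13610. The median of the 25 chromosome 2 motifs with at least 50 junctions was 52.9%.

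Most joins began at or near the cut, and the 3 most used positions at each site had lost at most 2 bp of the prey end. Added over the control libraries, the most used position at Nup214 was 31974701 on the plus strand, the first base of the motif, with 88 junctions in 13 libraries and a median overlap of 8 bases. Positions 31974706 and 31974705 on the plus strand followed with 76 and 75 junctions and a median overlap of 0. At Gm13610 the most used were 32236002 on the plus strand with 94 junctions and a median overlap of 9 bases, 32236010 on the minus strand with 89 and a median overlap of 8, and 32236008 on the plus strand with 63 and a median overlap of 0. The first of these positions at each site, and the second at Gm13610, are those that a join with the motif whole would have. Not all junctions there were of that kind. Whole-motif joins, counted below, numbered 48 at the right-hand end of Nup214, and 74 and 73 at the right-hand and left-hand end of Gm13610. The 10 most used positions held 42.4% of the Nup214 junctions and 57% of the Gm13610 junctions, and 219 and 135 different positions and strands were used in all.

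**Figure D2:**
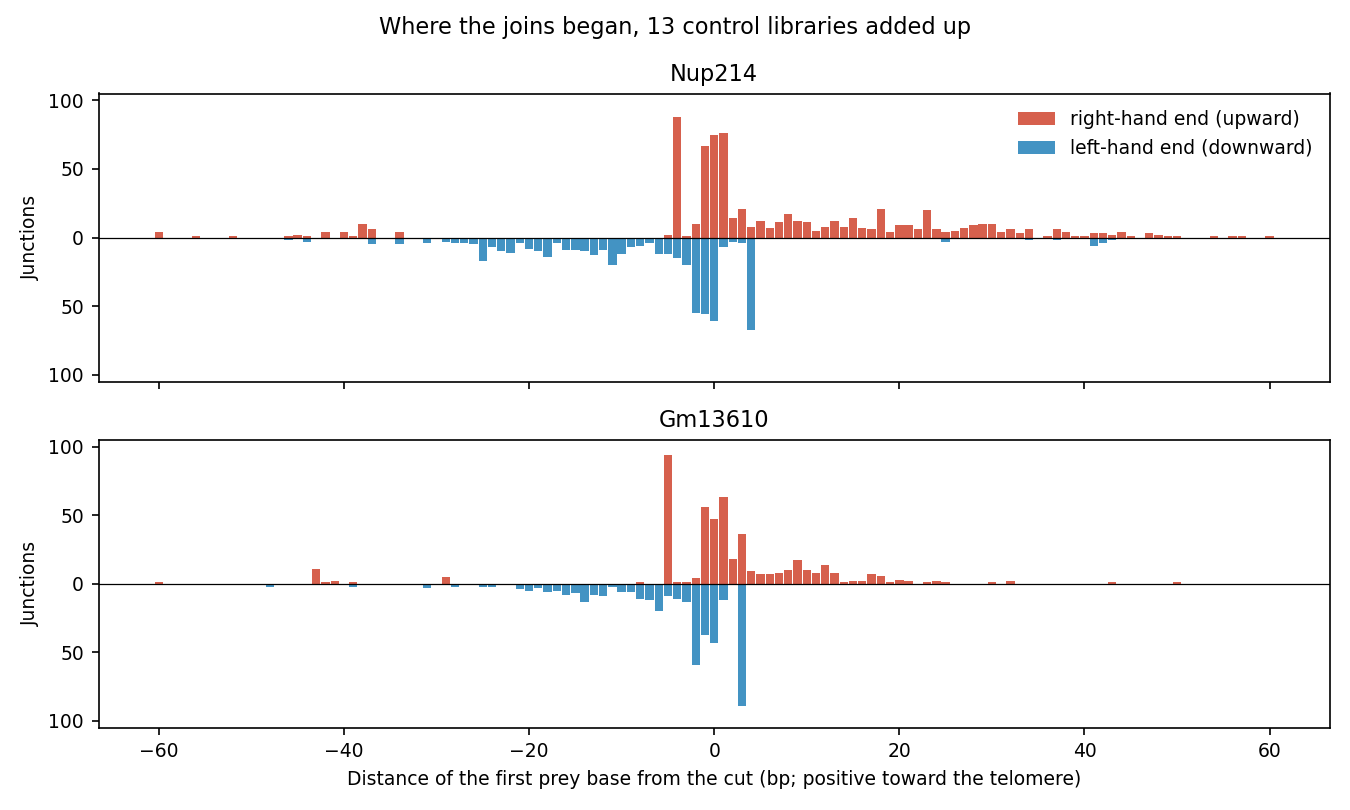
Number of junctions (vertical axis, 13 control libraries added up) by distance of the first prey base from the cut (horizontal axis, bp, positive toward the telomere), with joins to the right-hand end drawn upward in red and to the left-hand end downward in blue. Both sites peak at the cut, the tallest bar is 88 at Nup214 and 94 at Gm13610, and Nup214 spreads further to either side.

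Nup214 junctions had lost more than 10 bp of the prey end more often than Gm13610 junctions. This share ran from 13.9% to 49.8% with a median of 33.3% at Nup214, and from 3.85% to 30.7% with a median of 16.3% at Gm13610. The ranges overlap between libraries, yet within a library Nup214 was higher in 12 of 13. The means were 31.0% ± 10.6 and 17.0% ± 6.30 (SD, n = 13), and the mean difference was 14.0 points (SD 7.56, exact two-sided sign-flip test, p = 0.000488, adjusted over 7 measures 0.00114). The difference was positive in each of the 6 sequencing runs, with means per run between 2.79 and 20.7 points. Most of it lay in the range from 11 to 50 bp. Added over the control libraries and leaving out prey that began past the cut, losses of 11 to 25 bp made up 26.7% of left-hand ends and 20.8% of right-hand ends at Nup214, against 17.0% and 14.2% at Gm13610. Losses of 26 to 50 bp made up 7.76% and 13.7% at Nup214 and 3.90% and 1.06% at Gm13610. With 50 bp as the limit the sites no longer differed detectably (1.13 points, adjusted p = 0.442). The median loss was 4 bp at Nup214 and 2 bp at Gm13610, and the 90th percentile 35 bp and 18 bp.

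Against all other AsiSI motifs of chromosome 2 added up, whose mean per library was 19.97% ± 7.72 (SD, n = 13), Nup214 was 11.1 points higher in loss over 10 bp (12 of 13 libraries, exact sign-flip, adjusted p = 0.00228 over 14 comparisons). Gm13610 was 2.93 points lower (adjusted p = 0.136). Without the prey that began past the cut (described below) its difference was -6.62 points (exact sign-flip, adjusted p = 0.0041). Among the 206 motifs with at least 50 junctions over the control libraries, 3 had a larger share of such losses than Nup214 (37.5% with these libraries added up) and 84 a larger one than Gm13610 (20.8%). Arhgap21, a chromosome 2 site of similar junction number, was 1 of the 3 at 40.2%, while Romo1 and Dnmt3b had 22.8% and 25.02%. The part of junction number in these comparisons was not tested. The flanks of the sites differ too. Within 50 bases of the cuts, Nup214 shares 38 matches of 4 bases with the bait end in the orientation of a join, 24 from its left-hand end and 14 from its right-hand end, the highest number among the 25 such motifs of chromosome 2. Gm13610 shares 19, 6 from the left and 13 from the right, against a median of 20. GC content over the motif and 50 bp on either side is 69.4% at Nup214, 49.1% at Gm13610 and 67.6% in the median of those motifs. Any part of these sequence features in the losses was not tested.

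Whole prey ends, with no base lost from the cut, were fewer at Nup214 within a library, but this difference moved with the number of junctions. They made up 14.3% to 42.9% of Nup214 junctions (median 25%, mean 25.8% ± 7.78, SD, n = 13) and 22.7% to 62.5% of Gm13610 junctions (median 35.4%, mean 39.3% ± 12.4, SD, n = 13). Nup214 was lower in 13 of 13 libraries, by 13.4 points in the mean (exact sign-flip, p = 0.000244, the smallest that 13 libraries allow, adjusted 0.000854). Overlaps of 6 bases or more likewise made up 17.2% ± 8.27 of Nup214 junctions and 29.6% ± 14.2 of Gm13610 junctions (SD, n = 13), and the mean of Nup214 minus Gm13610 was -12.4 points (exact sign-flip, adjusted p = 0.000854). The share of Nup214 was lower in 13 of 13 libraries here too. Junction numbers of the sites were unequal in these libraries, between 14 and 293 at Nup214 and between 16 and 238 at Gm13610. Setting each Nup214 value against the Gm13610 value of the control library with the smallest junction number at least as large, which was possible for 12 libraries, left -3.83 points (SD 8.04) for whole ends and -3.71 points (SD 9.06) for long overlaps, with Nup214 higher in 5 of 12 each time. The same comparison left 8.03 points (SD 6.54, Nup214 higher in 10 of 12) for losses over 10 bp. It sets libraries of different runs against each other, and the 12 comparisons use only 6 different Gm13610 libraries, so that their SDs and counts are not over separate values and no test was made. The match is also one-sided, as the Gm13610 value always came from at least as many junctions. The part of this in the smaller differences was not tested.

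**Figure D3:**
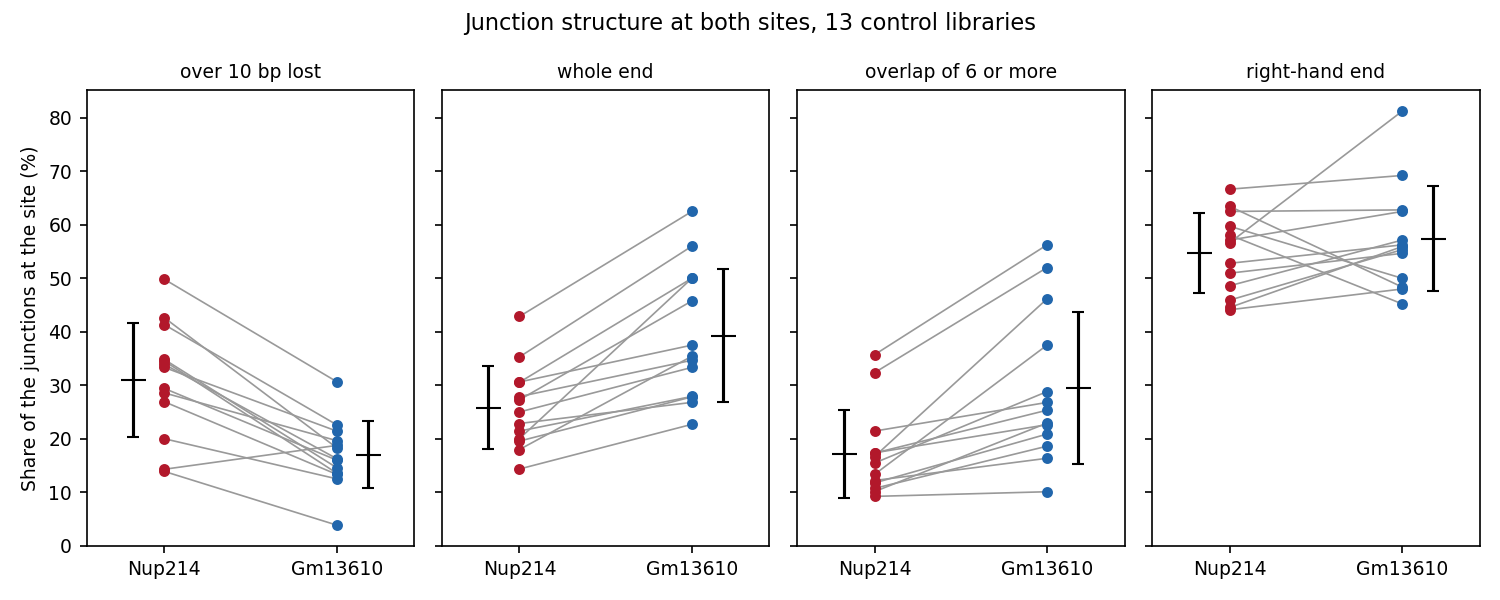
Share of the junctions at each site (vertical axis, percent) with more than 10 bp lost, with a whole prey end, with an overlap of 6 bases or more, and at the right-hand end, for the 13 control libraries; points are libraries, gray lines join the sites within a library, and black marks are the mean ± SD. Lines fall toward Gm13610 for losses in 12 of 13 libraries, rise for whole ends and long overlaps in 13 of 13, and cross for the right-hand end.

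Many of the long overlaps were joins with the motif whole, as in the 4 joined sequences shown above. Reads that held 8 bases of bait, the motif and 8 bases of prey were counted, a measure defined after reads had been seen. Over the control libraries, 84 of 194 long overlaps at Nup214 (43.3%) and 130 of 202 at Gm13610 (64.4%) were of this kind. By the sequence in the read, 65 whole-motif joins at Nup214 were to the left-hand end and 48 to the right-hand end, and at Gm13610, 73 and 74. Of these, 39 and 45 at Nup214 and 59 and 71 at Gm13610 had an overlap of 6 bases or more. The rest had been recorded with a shorter overlap or with an insertion (lowest overlap -24), and the recorded strand was not used in the count. The left-hand surplus at Nup214 thus held only when the overlap was left aside. The median overlap of all whole-motif joins was 10 and 8 bases at the left-hand and right-hand end of Nup214 and 8 and 9 bases at those of Gm13610. Whole-motif joins made up 12.3% ± 10.1 of Nup214 junctions and 22.4% ± 10.7 of Gm13610 junctions per library (SD, n = 13), and Nup214 was lower in 12 of 13 libraries (exact sign-flip, unadjusted p = 0.00122). Nup214 had more junctions in 12 of the 13 libraries, and each form of a junction is counted 1 time per library. This test therefore does not separate the site from the junction number. The number of whole-motif joins rose less than the number of junctions between small and large libraries. Control libraries with under 50 junctions at Nup214 held 4 to 7 of them, which was 11.1% to 42.9%, and those with 100 or more held 8 to 15, which was 3.75% to 10.9%. At Gm13610 the corresponding numbers were 6 to 11 (18.6% to 38.5%) and 15 to 17 (7.14% to 13%). Matched on junction number as above, the sites differed by -2.95 points (SD 4.83, Nup214 higher in 3 of 12).

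**Figure D4:**
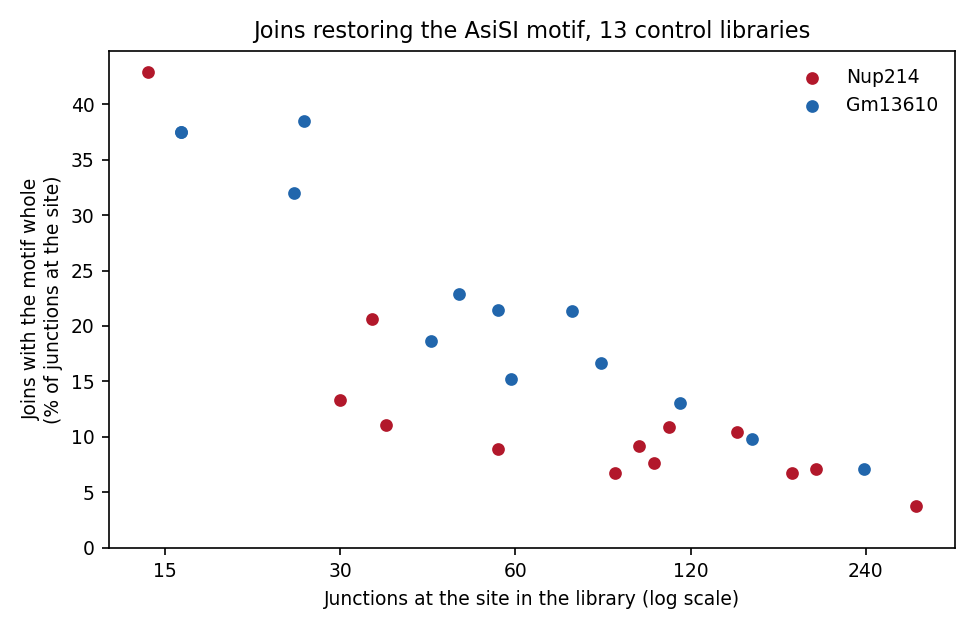
Joins with the AsiSI motif whole, as a percentage of the junctions at the site (vertical axis), by the number of junctions at the site in that library (horizontal axis, log scale), for Nup214 (red) and Gm13610 (blue) in the 13 control libraries; 2 libraries share the Gm13610 point at 16 junctions. The share falls from 42.9% at 14 junctions to 3.75% at 293 for Nup214 and from 37.5% at 16 to 7.14% at 238 for Gm13610.

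The other overlap classes differed less. Overlaps of 1 to 5 bases made up 44.3% ± 10.7 of Nup214 and 38.1% ± 10.1 of Gm13610 junctions (SD, n = 13). They were higher at Nup214 in 11 of 13 libraries (exact sign-flip, adjusted p = 0.00897), but with at least 30 junctions at each site the adjusted p was 0.116. With the control libraries added up, 311 of these 633 overlaps at Nup214 and 219 of 391 at Gm13610 were of 1 base. The paper takes blunt joins and very short microhomology as signs of classical non-homologous end joining. Joins without overlap made up 25.9% and 24.6% (adjusted p = 0.462) and insertions 12.6% and 7.83% (adjusted p = 0.0704). Against the other motifs of chromosome 2, Gm13610 had more whole ends (10.5 points, 13 of 13 libraries, adjusted p = 0.00171), more long overlaps (6.72 points, adjusted p = 0.00889) and fewer insertions (-6.59 points, exact sign-flip, adjusted p = 0.00889). With at least 30 junctions per site the calls on long overlaps and insertions were lost (adjusted p = 0.0851 for both), that on long overlaps was also lost with each form counted 1 time (adjusted p = 0.154), and the surplus of whole ends was 4.55 points without prey past the cut. Against single motifs, with the control libraries added up, Gm13610 did not stand out: its 31.8% of whole ends was the median of the 25 chromosome 2 motifs with at least 50 junctions, its 21.2% of long overlaps lay beside a median of 21.9%, and its 11.2% of insertions beside 12.1%. Nup214 had fewer long overlaps (-5.64 points, lower in 13 of 13 libraries, exact sign-flip, adjusted p = 0.00171), but with the control libraries added up its 14.0% was close to Romo1 and Dnmt3b, both at 13.9%, and above Arhgap21 at 8.46%. These motifs were added up over many sites, most with fewer junctions each, and the part of junction number in these differences was not tested.

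At both sites some prey began past the cut, on the far side of the motif from the end they ran along, by more than 10 bp. Over the control libraries there were 103 at Nup214 (7.44% of its junctions) and 47 at Gm13610 (4.93%), below the median of 9.70% among the 25 motifs of chromosome 2 with at least 50 junctions. The most frequent form at Nup214 lay 70 bp from the cut and was found 8 times, in 8 libraries, and that at Gm13610 lay 43 bp from the cut and was found 7 times, in 7 libraries. In 17 of these reads at Nup214 and 3 at Gm13610, the read went on to the motif followed by the nearest bases of the bait's own flank on the opposite strand. In a further 37 and 16, the read also held the motif followed by the flank in which the prey began, in the opposite direction. Leaving out prey past the cut ended the difference in insertions between Gm13610 and the other motifs (-0.409 points, adjusted p = 0.738).

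The interval between the sites received few junctions. Outside the windows, 72 junctions of the control libraries fell between the cuts, against 48 and 46 in the stretches of equal length to the left and right, and 2338 at the sites themselves. The libraries with the Cas9 bait held 4 junctions between the cuts and 5 and 8 on either side. Over all libraries, 30 junctions lay 501 to 1000 bp from the Nup214 cut and 28 from the Gm13610 cut.

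CK-666 was compared with DMSO in 6 pairs of libraries with the same replicate number and sequencing run. Here and for the other treatments, values are shares of a library's own junctions. A change in the number of all junctions therefore cannot be seen in them. The paper, which divided by bait-only sequences, reported fewer translocations with CK-666, NU7441, wiskostatin and R62D actin. Nup214 held 1.24% to 2.65% of junctions with DMSO (median 1.94%, mean 1.97% ± 0.460, SD, n = 6) and 0.910% to 2.21% with CK-666 (median 1.64%, mean 1.61% ± 0.558, SD, n = 6). Gm13610 held 1.01% to 1.55% with DMSO (median 1.40%, mean 1.34% ± 0.187, SD, n = 6) and 1.19% to 1.79% with CK-666 (median 1.56%, mean 1.52% ± 0.210, SD, n = 6). The groups overlapped at both sites. By pair, the log2 ratio of CK-666 to DMSO at Nup214 was -0.24, -0.01, -0.34, 0.01, -1.05 and -0.26, and at Gm13610 it was -0.06, 0.45, 0.24, 0.35, 0.10 and 0.08. The Nup214 mean was -0.31 ± 0.38 and the Gm13610 mean 0.19 ± 0.19 (SD, n = 6 pairs, exact two-sided sign-flip test, p = 0.0625 for each, adjusted over 4 values 0.0833). In 6 of 6 pairs the value at Nup214 was below that at Gm13610, with a mean log2 difference of Nup214 minus Gm13610 of -0.51 ± 0.34 (SD, n = 6, exact sign-flip, p = 0.03125, the smallest that 6 pairs allow, adjusted 0.0833). Within the run of pairs 1 and 2 this difference was -0.32, and within the run of pairs 3 to 6 it was -0.60. Without pairing of the libraries, an exact permutation test gave p = 0.0823 (adjusted 0.303). Both sites together gave -0.09 ± 0.23 (exact p = 0.5).

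That difference did not pass the adjustment, it lay between -0.57 and -0.38 without any 1 pair, and 2 of the CK-666 libraries held few junctions, 6 at each site in replicate 2 and 9 and 15 at Nup214 and Gm13610 in replicate 5. With each prey position, strand, bait end and overlap counted 1 time per library it was -0.59 (exact sign-flip, adjusted p = 0.0417). Across all motifs with at least 5 junctions per library on average, limma called 0 of 129 at an adjusted p under 0.05 (0% of the motifs tested; 5 had an unadjusted p under 0.05), and the adjusted p of both sites was 0.938. The DMSO libraries were also those in which the sites had been picked for high numbers, so the DMSO side of this comparison is not independent of the choice of sites.

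**Figure D5:**
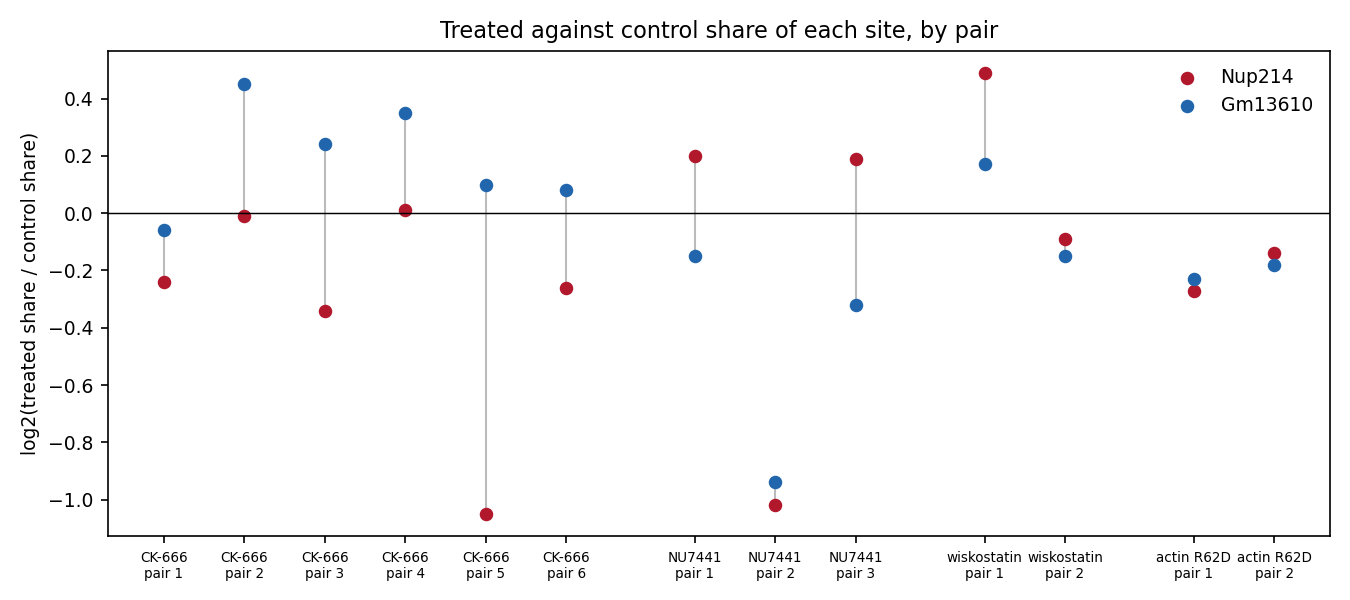
Log2 ratio of the treated to the control share of junctions at Nup214 (red) and Gm13610 (blue) for each pair of libraries (horizontal axis, by experiment). A gray line joins the sites of a pair, and the horizontal line marks no change in share. In the 6 CK-666 pairs the Nup214 point lies below the Gm13610 point, and in the other experiments the order varies.

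With NU7441, Nup214 held 1.40%, 1.77% and 1.91% of junctions against 1.23%, 3.64% and 1.68% in the controls. Gm13610 held 0.830%, 1.00% and 1.09% against 0.942%, 1.97% and 1.36%. Nup214 went both ways, with log2 ratios of 0.20, -1.02 and 0.19, and its mean was -0.21 ± 0.70 (SD, n = 3 pairs, exact sign-flip, p = 1). Gm13610 was lower in 3 of 3 pairs, at -0.15, -0.94 and -0.32, with a mean of -0.47 ± 0.41 (SD, n = 3, exact p = 0.25, the smallest that 3 pairs allow, adjusted 1). In the fit over motifs limma called 3 of 201 (1.49%), neither site among them (adjusted p = 0.886 for Nup214 and 0.683 for Gm13610). Control replicate 2, with the highest share at both sites, decided the size of both means: without that pair they were 0.20 at Nup214 and -0.24 at Gm13610.

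Long overlaps at Gm13610 made up 43.8%, 61.5% and 23.2% of its junctions with NU7441 and 18.6%, 22.9% and 10.1% in the controls, a mean difference of 25.6 points ± 12.8 in 3 of 3 pairs (SD, n = 3, exact sign-flip, p = 0.25, adjusted over 14 comparisons 0.583). At Nup214 they made up 29.6%, 21.7% and 9.09% with NU7441 and 10.7%, 10.1% and 9.22% in the controls (mean difference 10.1 points, exact p = 0.5). The NU7441 libraries had fewer junctions at Gm13610, 16, 13 and 69 against 43, 48 and 238, and such shares were higher at low numbers in the control libraries too. The part of the junction number in this difference was not tested. Losses over 10 bp at Gm13610 were lower with NU7441 in 3 of 3 pairs, at a mean of 10.4% against 20.5% (exact sign-flip, p = 0.25, adjusted 0.583). At Nup214 the means were 32.2% with NU7441 and 39.5% in the controls, with 1 of 3 pairs higher (exact sign-flip, p = 0.5, adjusted 0.583). Among the control libraries the Gm13610 share was highest, at 30.7%, in the one with 238 junctions, the control of pair 3. The part of the junction number in these losses was not tested either. With CK-666 no measure of structure reached an adjusted p below 0.7 at either site.

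Wiskostatin and R62D actin had 2 pairs each and were given no test over pairs. With wiskostatin, Nup214 held 2.31% and 2.07% against 1.65% and 2.20% in the controls, and Gm13610 held 1.44% and 1.43% against 1.28% and 1.58%, so that the pairs went opposite ways at both sites. With R62D actin, Nup214 held 1.84% and 2.73% against 2.23% and 3.01%, and Gm13610 held 1.22% and 1.43% against 1.43% and 1.60%. Both sites were lower in both R62D pairs, with mean log2 ratios of -0.21 and -0.20. In the fits over motifs limma called 1 of 196 with wiskostatin (0.510%) and 0 of 162 with R62D actin (0%; 10 had an unadjusted p under 0.05). The adjusted p of the sites lay between 0.754 and 0.984 in these 2 fits, and in simulated data of the R62D size limma also called 0 of 16 motifs changed by 2 on the log2 scale.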

How the data were processed

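MiSeq reads had been mapped on mm10 by the authors (BWA) and passed through the HTGTS pipeline with its default filters, a mapping quality above 30 and removal of duplicates. Per the file headers, the deposited tables hold 1 junction per line (other columns: positions on genome and read), not counts per gene, and no value is normalized. Values are shares of a library's junctions, as bait-only read numbers were not used. Hi-C samples (12) were left out. The sites, measures and lists were chosen with earlier results of these data known. AsiSI motifs (1109) were found in GRCm38.p6, the sequence of mm10. The cut is the fifth base of the motif. Loss counts the bases missing from the prey end including its overhang, and overlap is the bait's last read position minus the prey's first plus 1. Genes named were the members, the bait gene, those in or next to the interval, and Romo1, Dnmt3b and Arhgap21, leading chromosome 2 sites of the 6 DMSO libraries. Tests were exact sign-flip tests, which turn the sign of each difference in all combinations, over libraries with at least 10 junctions at each site or over pairs, and limma (trended prior) on log2((junctions + 0.5) / (total + 1) x 1000) per motif, with the pair as a block. P-values were adjusted by Benjamini and Hochberg. limma was tested on simulated data, where it called 7 of 12 motifs changed by 1 and 9 of 12 changed by 2 on the log2 scale at the size of the CK-666 experiment. At the size of the NU7441 experiment it called 3 of 20 and 14 of 20, and at that of wiskostatin 2 of 18 and 12 of 18. The simulated numbers had a fixed spread that was not estimated from the data, and no pair or run effect. Pairs were taken by replicate number, because the study's source data set each control to 1 within its replicate and both libraries of a pair came from 1 sequencing run, although numbering there and in the labels may differ. Deviations of same-numbered libraries over motifs correlated at -0.0239 to 0.202 for CK-666, 0.0642 to 0.312 for NU7441, 0.328 for wiskostatin and 0.257 for R62D actin, so that for CK-666 they do not by themselves show the numbers to be pairs. No library was a copy of another: 2 libraries shared at most 2.12% of identical reads, and at most 64.8% of junction forms (both as a share of the smaller). Wilson intervals cover 95% and, like limits from 3 counts, counting error only. Analyses used Python 3.11.15, numpy 2.4.6, pandas 2.3.3, scipy 1.17.1, matplotlib 3.10.9, R 4.3.3 and limma 3.58.1.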

Additional observations from a re-analysis of the deposited data

How the results depend on the processing

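Alternatives were a window of 100 bp, each form (position, strand, bait end and overlap) counted 1 time, other totals, other limits for loss and overlap, at least 30 junctions per site, an unpaired test, and leaving out single libraries or pairs. Leaving out prey past the cut, matching on junction number and values within a run were added after the data were seen.

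The log2 ratio of Nup214 to Gm13610 stayed between 0.51 and 0.61 without any 1 library and kept its side of the threshold in each alternative. The excess over 50% of right-hand ends at Nup214 was 4.44 points with the 100-bp window and 4.37 with each form counted 1 time (adjusted p = 0.0671 and 0.0757), 4.07 with at least 30 junctions (3.97 at Gm13610), 2.82 without prey past the cut, and 3.71 to 5.59 without any 1 library, where 9 of 13 omissions lost the call. At Gm13610 omissions gave 5.45 to 8.46.

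Between the sites, losses, whole ends and long overlaps kept their calls without any 1 library (13.1 to 15.5, -14.2 to -12.1 and -13.3 to -10.9 points). Losses over 50 bp gave 1.13 (1.22 for Nup214 against the other motifs, and 0.0973 for Gm13610). Whole ends matched on number gave -3.83. At least 30 junctions gave 0.100 for the right-hand end and 3.56 for overlaps of 1 to 5, joins without overlap gave -0.224 with each form counted 1 time, and insertions gave 4.51 in the 100-bp window (3.39 to 5.92 without any 1 library).

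Against the other motifs, leaving out prey past the cut gave -7.39 for whole ends at Nup214 and -6.62 for losses at Gm13610. Both of these gained a call (exact sign-flip, adjusted p = 0.00342 and 0.0041). It also gave 1.69 for insertions at Nup214, and -1.49 for no overlap and -0.409 for insertions at Gm13610. At least 30 junctions gave 4.03 for no overlap at Nup214, 2.31 for long overlaps and -3.51 for insertions at Gm13610. Gm13610 long overlaps gave 4.21 with each form counted 1 time, where the call was lost, and Nup214 overlaps below 7 bases gave 6.20. Omitting 1 library gave 2.43 to 3.75 for no overlap, -3.48 to -1.95 for whole ends, 2.60 to 4.32 for the right-hand end and 2.47 to 5.99 for overlaps of 1 to 5 at Nup214, and 4.55 to 7.49 for the right-hand end at Gm13610. The cause of these shifts was not tested.

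Without the replicate block, the exact permutation test of unpaired libraries and limma changed no call at the sites. The motifs called with NU7441 went from 3 to 0 without the block, 9 with at least 1 junction per library, 31 with 2 added, 0 in the 100-bp window, and 1, 25 and 0 without pair 1, 2 and 3. With wiskostatin the 1 call became 0 with at least 1 junction per library. With each form counted 1 time, the CK-666 means were -0.41 at Nup214, 0.19 at Gm13610 and -0.59 for their difference (adjusted p = 0.0417 each), and without any 1 pair they were -0.38 to -0.17, 0.14 to 0.24 and -0.57 to -0.38. Both sites together gave 0.0105 within the run of pairs 1 and 2. Without 1 pair, NU7441 gave -0.42 to 0.20 at Nup214 and -0.51 to 0.0154 for both. With junctions near motifs as total, R62D gave -0.31 at Nup214, -0.30 at Gm13610 and -0.30 for both.

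Of structure under treatment, CK-666 gave 0.103 for short overlaps at Nup214 with each form counted 1 time and 0.175 for losses over 50 bp at Gm13610. NU7441 gave 0.841 for losses over 50 bp at Nup214 and 1.18 for overlaps below 7 bases at Gm13610. Wiskostatin insertions at Gm13610 gave -1.44 (100 bp) and -4.44 (each form 1 time), and R62D long overlaps at Nup214 gave 6.94, 5.80 and 6.37 (100 bp, each form 1 time, from 7 bases). Omitting 1 CK-666 pair gave -1.56 to 0.392 for insertions and -6.55 to 1.98 for short overlaps at Gm13610, and -4.85 to 1.61 for no overlap, -7.83 to 0.0271 for losses and -9.09 to 4.43 for short overlaps at Nup214. Omitting 1 NU7441 pair gave -4.70 to 1.08 for insertions and -0.507 to 8.29 for the right-hand end at Nup214. Among AsiSI-MEF libraries the smallest held 6 junctions at each site.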
